A study of Mus musculus with 6 samples.

Results

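A set of 10 genes of the Toll-like receptor system was followed in adult mouse kidney RNA: 6 receptors (Tlr1, Tlr2, Tlr3, Tlr4, Tlr6 and Tlr7), the co-receptors Cd14, Ly96 and Lbp, and the adaptor Myd88. They are 10 of the 22180 genes that the Affymetrix Mouse Gene 2.1 ST arrays measured through a transcript cluster with a single gene symbol. The genes were listed by name, with earlier results of the same comparison known, and for each gene the cluster was chosen by the highest mean log2 value over the 6 arrays. All 10 were found, each with 1 such cluster, so that choice decided nothing here. The values of the genotype comparison below describe genes that were picked with those values known.

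The 3 arrays labelled Pax28 dKO (replicates 1, 3 and 5) carry RNA of mice homozygous for floxed Pax2 and Pax8 alleles that were bred to Rosa26CreER, a tamoxifen-inducible Cre recombinase. The 3 controls (replicates 2, 4 and 6) were Cre-negative; the labels do not say which Pax2 and Pax8 alleles they carried. Both groups received tamoxifen at 50 mg/kg in corn oil, on 3 consecutive days at 8 weeks of age with a repeat at 10 weeks, and kidney tissue was taken 14 days after the final dose. The Rosa26 locus is active in most cell types, so the Cre is not restricted to the tubule. The strain was not given in the sources used here. There are 2 females and 1 male per group (the male arrays are knockout 1 and control 4). Whether every array comes from its own animal is not stated, and the p-values then cover only the spread among these arrays, which may be technical.

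Toll-like receptors recognise conserved microbial molecules and some products of damaged tissue. Tlr1, Tlr2, Tlr4 and Tlr6 act at the cell surface, while Tlr3 and Tlr7 act in endosomes on double-stranded and single-stranded RNA. Lipopolysaccharide is carried by the secreted protein Lbp to Cd14, which passes it to the complex of Ly96 (MD-2) and Tlr4. Every receptor of the family except Tlr3 signals through Myd88 to NF-kappaB. In the kidney these genes are expressed by resident and recruited myeloid cells, and several of them also by tubular epithelium. In RNA of unsorted kidney tissue, more cells of a type and more RNA per cell cannot be told apart.

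The kidney label matched the tubular markers: Umod, the urinary protein of the thick ascending limb, stood at 11.42 ± 0.02 log2 in controls (SD, n = 3), and the proximal phosphate transporter Slc34a1 at 11.83 ± 0.01. The targeted genes did not check the labels. Pax8 was higher on the arrays labelled knockout (10.11, 10.59 and 10.39 log2, against 9.09, 9.003 and 8.89), and Pax2 did not pass the test (6.11, 6.49 and 6.16, against 6.09, 5.77 and 6.08). The deleted exons are not given in the labels, and probes outside the deleted part check nothing. All directions below are therefore those of the libraries labelled knockout. No detection call comes with the values; the 3 Y-linked genes measured, which females lack, read between 2.27 and 2.73 log2 on the 4 female arrays.

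Of the 10 genes, Cd14, Tlr3 and Lbp passed as higher on the arrays labelled knockout and none passed as lower (limma, Benjamini-Hochberg adjusted p under 0.05 over all genes). At an unadjusted p under 0.05 the counts were 5 and 0 of the 10, and 2565 and 2324 of all 22180 genes. Across all 22180 genes, 4.12% passed as higher and 3.08% as lower; since the genes were picked with this comparison known, nothing is read from their share. With each array centred on its median, 713 genes passed as higher and 1194 as lower, in place of 913 and 683, and the same 3 members passed. The median log2 difference of the 10 genes was 0.34 and that of all genes -0.01. The 3 knockout-labelled arrays all lay above the 3 controls for Cd14, Tlr3 and Tlr4, against 11.7% of all genes.

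**Figure D1:**
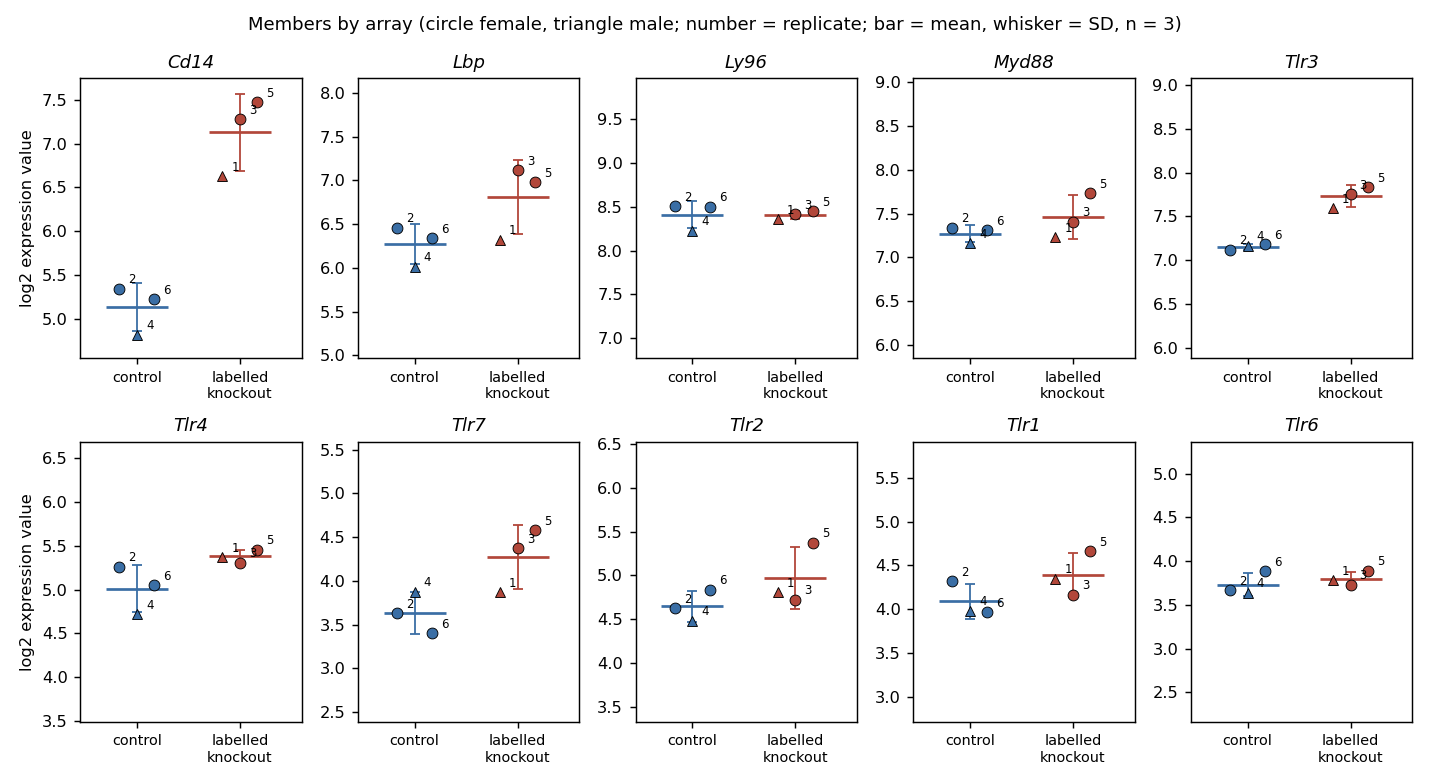
Log2 expression value of each of the 10 genes on each array, in controls (blue) and on arrays labelled knockout (red), with circles for females, triangles for males and the replicate number beside each point. Bars are group means and whiskers SDs over 3 arrays, and each panel spans the same range of log2 units around its own values. Cd14 separates the groups by the widest margin, from at most 5.34 in controls to at least 6.63 on the arrays labelled knockout.

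Cd14, the membrane-anchored co-receptor that hands lipopolysaccharide to Tlr4, rose 4.0-fold. It stood at 6.63, 7.28 and 7.47 log2 on the arrays labelled knockout 1, 3 and 5 and at 5.34, 4.82 and 5.23 on controls 2, 4 and 6. The lowest knockout-labelled value thus lay above the highest control, and the male was the lowest array of each group. The group means were 7.13 ± 0.44 and 5.13 ± 0.28 (SD, n = 3 per group), and the sex-adjusted log2 difference was 2.00 ± 0.10 (SE; limma adjusted p = 0.0011). Cd14 passed in all 6 fits with an array left out and in the other 8 fits, with adjusted p-values up to 0.016.

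Lbp, the secreted acute-phase protein that extracts lipopolysaccharide from bacterial membranes, rose 1.45-fold. It stood at 6.32, 7.11 and 6.98 log2 on knockouts 1, 3 and 5 and at 6.46, 6.01 and 6.34 on controls 2, 4 and 6. The groups overlapped, because the male knockout 1 lay below control 2 and control 6. The difference was 0.53 ± 0.10 on the log2 scale (SE; limma adjusted p = 0.031). The call was lost without control 2, control 6, knockout 3 or knockout 5 (adjusted p between 0.097 and 0.11) and without the sex term (0.28), so it needs the adjustment for sex. Adipose tissue also expresses Lbp, and the summed linear value of 6 adipose markers was 466 to 1473 in controls and 645 to 995 on the arrays labelled knockout; the part of fat in the Lbp values was not tested.

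Ly96, which binds lipopolysaccharide together with Tlr4, stood at 8.35, 8.42 and 8.45 log2 on knockouts 1, 3 and 5 and at 8.51, 8.23 and 8.50 on the controls. All knockout-labelled values fell inside the control range. The log2 difference was -0.01 ± 0.08 (SE), with a 95% interval from -0.20 to 0.19 and a limma adjusted p of 0.98. Its sign depended on the fit, and was positive after quantile normalization.

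Myd88, the adaptor shared by nearly all receptors of the family, stood at 7.23, 7.41 and 7.73 log2 on knockouts 1, 3 and 5 and at 7.34, 7.16 and 7.31 on the controls. Knockout 1 lay within the control range and knockout 5 was the highest array. The difference of 0.19 ± 0.11 log2 (SE; 95% interval -0.07 to 0.44) did not pass (limma adjusted p = 0.37).

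Among the receptors, Tlr3, the endosomal sensor of double-stranded RNA that signals through Ticam1 in place of Myd88, rose 1.49-fold. It stood at 7.59, 7.76 and 7.84 log2 on knockouts 1, 3 and 5 and at 7.12, 7.16 and 7.18 on the controls. The controls lay within 0.1 log2 of each other and all below the arrays labelled knockout. The difference was 0.57 ± 0.09 log2 (SE; limma adjusted p = 0.016), seen in the females (0.65) and between the 2 males (0.43). The limma adjusted p was between 0.057 and 0.071 without control 2, control 6, knockout 3 or knockout 5, with a size between 0.53 and 0.57. Over all fits with an array left out the size stayed between 0.53 and 0.65.

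Tlr4, the lipopolysaccharide receptor, stood at 5.37, 5.31 and 5.46 log2 on knockouts 1, 3 and 5 and at 5.26, 4.72 and 5.05 on the controls. The groups did not overlap, but knockout 3 exceeded control 2 by little and control 4 was low. The difference of 0.37 ± 0.12 log2 (SE; 95% interval 0.08 to 0.66) did not pass over all genes (limma adjusted p = 0.13), in this fit or in any alternative.

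Tlr7, the X-linked endosomal receptor for single-stranded RNA, stood at 3.87, 4.37 and 4.58 log2 on knockouts 1, 3 and 5 and at 3.63, 3.88 and 3.4001 on the controls. Both female knockout-labelled arrays lay above all controls, while the male pair read alike (3.87 and 3.88). The difference was 0.64 ± 0.20 log2 (SE; limma adjusted p = 0.12). Within the females it was 0.96 and passed (limma adjusted p = 0.017), and the male difference was -0.01. The genotype by sex term for Tlr7 was -0.97 ± 0.23 (SE), with an unadjusted p of 0.0056 and an adjusted p of 0.58, so a difference between the sexes was not established.

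Tlr2 and its partners Tlr1 and Tlr6, which recognise bacterial lipoproteins as heterodimers, did not pass. Tlr2 stood at 4.81, 4.72 and 5.37 log2 on knockouts 1, 3 and 5 and at 4.62, 4.48 and 4.83 on the controls, a difference of 0.32 ± 0.17 (SE; 95% interval -0.08 to 0.72; limma adjusted p = 0.34). Knockout 5 alone lay above every control. Without knockout 5 the difference was 0.14. Tlr1 followed with 4.35, 4.16 and 4.66 against 4.32, 3.98 and 3.97, a difference of 0.30 ± 0.16 (SE; limma adjusted p = 0.32), and without knockout 5 it was 0.17. Tlr6 stood at 3.78, 3.73 and 3.89 against 3.67, 3.64 and 3.89, a difference of 0.07 ± 0.10 (SE; limma adjusted p = 0.75) whose sign turned with median centring. Tlr1 and Tlr6 are neighbouring, closely related genes, and whether their probes tell the transcripts apart was not tested.

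**Figure D2:**
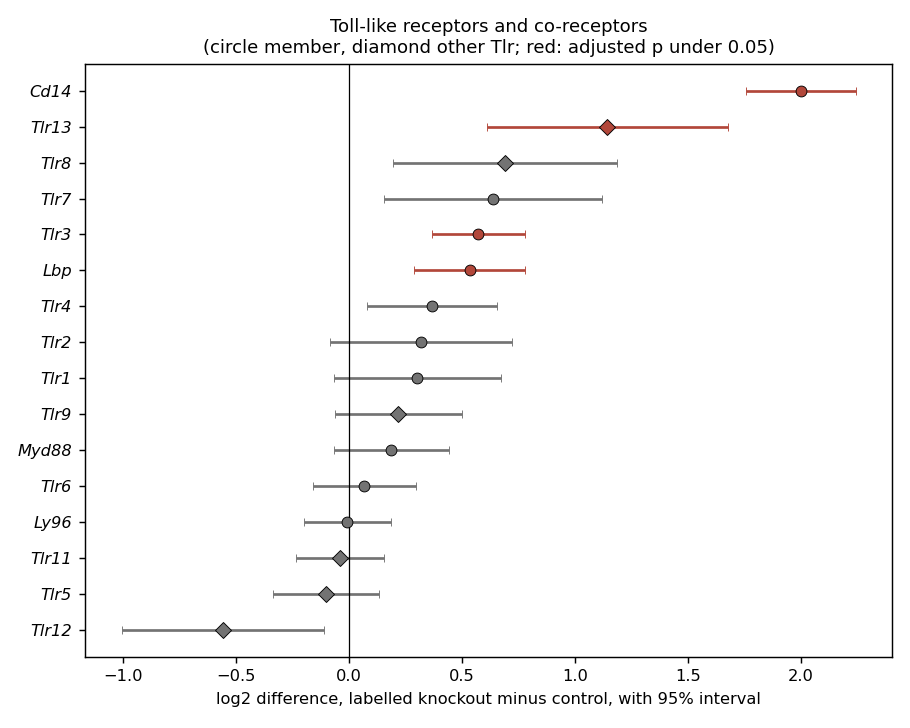
Log2 difference between arrays labelled knockout and controls for the 10 genes (circles) and the 6 other mouse Toll-like receptors (diamonds), adjusted for sex, with 95% intervals from limma. Red points passed at an adjusted p under 0.05: Cd14 at 2.00, Tlr13 at 1.14, Tlr3 at 0.57 and Lbp at 0.53.

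The 6 other receptors of the family were read in the same fit, and 1 of them passed as higher and none as lower (2 and 1 at an unadjusted p under 0.05). Tlr13, the endosomal receptor for bacterial ribosomal RNA, rose 2.21-fold. It stood at 4.21, 5.10 and 5.57 log2 on knockouts 1, 3 and 5 and at 3.89, 3.74 and 3.82 on the controls. The groups did not overlap, and the male knockout 1 lay far nearer to the controls than the females did. The difference was 1.14 ± 0.22 log2 (SE; limma adjusted p = 0.033), and the call was lost without control 2, control 6, knockout 3, knockout 5 or the sex term (adjusted p up to 0.12).

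Tlr8, the X-linked neighbour of Tlr7, stood at 2.68, 3.29 and 3.72 log2 on knockouts 1, 3 and 5 and at 2.62, 2.58 and 2.41 on the controls. Its control values lay within the range of the Y-linked genes on female arrays. The difference of 0.69 ± 0.21 (SE) did not pass with all arrays (limma adjusted p = 0.10) and passed within the females, at 0.99 (0.032). Tlr12, a sensor of a parasite protein in mice, stood lower on the arrays labelled knockout (4.16, 4.22 and 4.31 against 4.38, 5.29 and 4.69), with groups that did not overlap, as for 10.8% of all genes in that direction. Its difference of -0.56 ± 0.19 (SE) did not pass (limma adjusted p = 0.14) and was -0.27 in the females. Tlr9 (0.22), Tlr5 (-0.10) and Tlr11 (-0.04) did not pass either.

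The arrays labelled knockout were not alike in these genes. Knockout 5 held the highest value of its group for 9 of the 10 genes, the exception being Lbp, and knockout 1 held the lowest for 6 and knockout 3 for 4. Set against the control mean of each gene, the median of the 10 was 0.63 log2 on knockout 5, 0.22 on knockout 3 and 0.20 on knockout 1, and between -0.14 and 0.08 on the controls. Among the controls the male, control 4, was lowest for 7 of the 10 genes. These ranks were not counted over all genes, so whether they are particular to the 10 is not known.

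The sex of the mice was not used to list the genes, and the same fit gave its effect. All 10 genes had lower estimates in males than in females, between -0.61 and -0.08 log2. How many of all genes had lower estimates in males was not counted, so nothing is read from the shared sign. Without knockout 1 the estimates of Tlr3 (0.0147) and Tlr7 (0.3635) were positive. Of the 10 genes 1 passed, where 1.87% of all genes did in either direction. At an unadjusted p under 0.05 the count was 2 of the 10. Cd14 was lower in the 2 males by 0.61 log2, an estimate of -0.61 ± 0.11 (SE; 95% interval -0.87 to -0.35) with a limma adjusted p of 0.0499. That call was lost in every fit with an array left out and under 5 of the other 7 settings, with adjusted p-values from 0.0503 to 0.87. Lbp had an estimate of -0.55 ± 0.11 (SE; limma adjusted p = 0.064). None of the 10 passed for a genotype by sex term (1 at an unadjusted p under 0.05; 0.00451% of all genes passed), a test with 1 male per group.

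Promoter sequence was looked at for the receptors that rose and for members that did not pass, using the 250 bases before the start site in RefSeq (GRCm38.p6). Windows of 11 of the 16 genes are reported, 5 of them members. Cd14 was left out by a filter on chromosome, so its promoter is not described. Lbp, Ly96, Tlr4 and Tlr7 had no window. Both strands were searched for the NF-kappaB consensus, the interferon response element core GAAANNGAAA, the PU.1 core GAGGAA and a Pax2 core GTCACG, which occurred in 7.25%, 2.98%, 23.3% and 6.93% of all 32851 windows. The NF-kappaB consensus was found for Tlr3, which rose, at 211 bases before the start, and for Tlr2, which did not pass, as 2 overlapping matches at 173 and 172 bases. The interferon core was found for Myd88 at 40 bases before the start and also for Tlr6 and Tlr11. The PU.1 core was found for Tlr13 at 83 bases before the start and also for Tlr1, Tlr8, Tlr9 and Tlr11. The Pax2 core was in none of the 13 windows reported, which do not include Cd14. That says only that these letters are not there. Matches are in capitals, and each sequence runs 5′ to 3′ on the strand of its gene. A match is a description of the sequence and not a site.
Tlr3 (chr8:45410381-45410630, minus strand): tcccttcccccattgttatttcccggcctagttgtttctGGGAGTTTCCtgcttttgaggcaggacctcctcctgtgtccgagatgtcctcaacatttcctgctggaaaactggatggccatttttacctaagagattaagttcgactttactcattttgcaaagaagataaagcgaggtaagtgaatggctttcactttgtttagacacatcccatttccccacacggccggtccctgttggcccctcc
Tlr13 (chrX:106143025-106143274, plus strand): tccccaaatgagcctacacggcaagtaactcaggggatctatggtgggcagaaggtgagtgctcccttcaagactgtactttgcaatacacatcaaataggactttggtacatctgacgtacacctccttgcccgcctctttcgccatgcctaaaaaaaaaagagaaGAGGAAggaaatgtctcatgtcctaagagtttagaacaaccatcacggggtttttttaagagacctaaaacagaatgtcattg
Tlr2 (chr3:83841609-83841858, minus strand): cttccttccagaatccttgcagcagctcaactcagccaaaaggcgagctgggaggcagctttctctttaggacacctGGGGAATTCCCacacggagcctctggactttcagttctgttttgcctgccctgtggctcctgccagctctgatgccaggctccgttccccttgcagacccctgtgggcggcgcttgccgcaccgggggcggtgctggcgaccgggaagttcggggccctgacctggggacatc
Myd88 (chr9:119340019-119340268, minus strand): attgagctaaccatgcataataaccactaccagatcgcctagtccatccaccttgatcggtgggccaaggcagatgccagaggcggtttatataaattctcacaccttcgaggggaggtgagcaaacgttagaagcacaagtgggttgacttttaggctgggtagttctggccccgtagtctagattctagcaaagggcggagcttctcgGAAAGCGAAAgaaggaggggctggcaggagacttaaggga

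The other genes of the pathway were read by role from lists written by known function, with earlier results of these data known. Across all 22180 genes, 4.12% passed as higher and 3.08% as lower (2565 and 2324 genes at an unadjusted p under 0.05 in limma). Because of how the lists were chosen, their counts describe them and are not read against these shares. Of 13 accessory and trafficking genes 2 rose and none fell (4 and 0 at an unadjusted p under 0.05), with a median of 0.16 log2. Ly86 (MD-1), which pairs with the receptor-like Cd180, rose 3.13-fold, from 5.87 ± 0.15 to 7.51 ± 0.34 log2 (SD, n = 3 per group; limma adjusted p = 0.0028). Unc93b1, the chaperone that brings Tlr3, Tlr7 and Tlr13 to endosomes, rose 1.77-fold, from 6.16 ± 0.16 to 6.98 ± 0.29 (limma adjusted p = 0.033). The Ly86 call held with each array left out; that of Unc93b1 was lost without control 2, control 6, knockout 3 or knockout 5 (adjusted p up to 0.12) and without the sex term (0.0521).

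The adaptors and kinases below the receptors gave no call, and the transcription factors at the end of the chain gave 8; the difference between the lists was not tested. Of 17 measured adaptors and kinases none passed in limma (4 higher and 0 lower at an unadjusted p under 0.05), with a median of 0.08. In the alternative fits 1 passed as higher without genes under mean log2 4, with a trended robust prior or without knockout 3. None passed in the others. Of 10 NF-kappaB, AP-1 and IRF factors 8 rose and none fell (9 and 0 at an unadjusted p under 0.05), with a median of 0.73. Fos rose 2.70-fold and Jun 2.84-fold, and the NF-kappaB subunits Relb and Rel rose 1.76-fold and 1.56-fold (limma adjusted p between 0.0017 and 0.016). Of these 10 factors, 2 passed without control 2 or control 6, 3 without knockout 5 or without the sex term, 5 within the females and 6 without knockout 3.

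Of 13 measured inhibitors of the pathway 4 rose and 1 fell, with a median of 0.34. Nfkbie, an inhibitor that retains NF-kappaB in the cytoplasm, rose 1.98-fold, from 4.65 ± 0.16 to 5.64 ± 0.07 log2 (SD, n = 3 per group; limma adjusted p = 0.0064). The ubiquitin-editing enzyme Tnfaip3 (1.42-fold), the kinase-dead Irak3 (1.48-fold) and Tnip1 (1.37-fold) also rose. The fall was in Sigirr, a receptor that dampens signalling, by 1.39-fold (limma adjusted p = 0.043), and this gene was singled out with its value in view. With single arrays left out, 1 or 2 of the list passed as higher and none as lower, and Nfkbie was called in all 6 of these fits. Tnfaip3, Irak3 and Tnip1 were called in none of them (adjusted p between 0.0506 and 0.12).

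Of 22 genes that Toll-like receptor signalling induces, 7 rose and none fell (10 and 0 at an unadjusted p under 0.05), with a median of 0.30. Lcn2, which binds bacterial siderophores, rose 8.63-fold. The chemokines Cxcl10 and Ccl2 rose 2.55-fold and 1.75-fold, and Nfkbiz, a nuclear co-activator of NF-kappaB, 1.86-fold (limma adjusted p between 0.0011 and 0.0145). The cytokine genes Tnf (0.37), Il1b (0.12) and Il6 (-0.04) did not pass and are named after their values were seen. Without control 2 the count was 3, without control 6 it was 2, and without the sex term 4.

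Of 14 endogenous molecules reported to act on these receptors 5 rose and 1 fell. The fibrinogen chains Fgg and Fga rose 5.02-fold and 3.57-fold and fibronectin Fn1 2.32-fold, and the proteoglycan versican (Vcan) fell 3.22-fold (limma adjusted p between 0.0011 and 0.0102). Without control 2 or control 6 the counts were 3 and 0, and 3 rose without the sex term. Of 14 sensors outside the family 4 rose and none fell: Sting1 (2.34-fold), the mannose receptor Mrc1 (3.34-fold), the RNA sensor Ifih1 (1.49-fold) and the scavenger receptor Msr1 (1.94-fold). Of these 4, only Sting1 kept its call with every single array left out, and the count was 1 without control 2, control 6 or the sex term and 2 without knockout 3 or knockout 5.

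**Figure D3:**
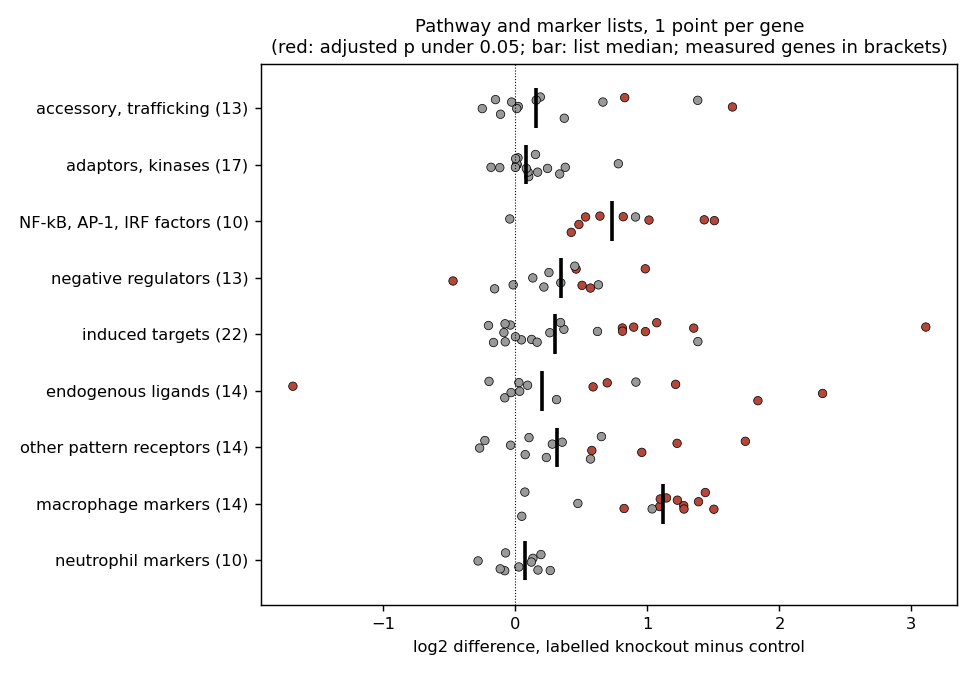
Log2 difference between arrays labelled knockout and controls for each measured gene of 9 lists, with the number of genes in brackets; red points passed at an adjusted p under 0.05 and vertical bars are list medians. The medians reach 0.73 for the transcription factors and 1.12 for macrophage markers, and lie at 0.08 for adaptors and kinases and at 0.07 for neutrophil markers. All neutrophil markers had a mean log2 under 4, too low to show whether neutrophils changed.

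Markers of monocytes and macrophages rose on the same arrays. Those of neutrophils, all with a mean log2 under 4, did not pass. Of 14 monocyte and macrophage markers 10 rose and none fell; the median was 1.12, and their summed linear value was 824 to 887 in controls and 1324, 1498 and 1981 on knockouts 1, 3 and 5. Of the 10 members, Cd14, Tlr3, Tlr7, Ly96 and Myd88 put the 3 knockout-labelled arrays in the same order as that sum, and Lbp, Tlr1, Tlr2, Tlr4 and Tlr6 did not. How many of all genes keep this order was not counted, so nothing is read from it. The 4 macrophage markers with the smallest p were Cd68, C1qb, C1qa and Aif1, which rose between 2.14-fold and 2.84-fold. Csf1r, Ccr2, Mertk and Cd163, named with their values in view, did not pass. The count was 4 without control 2 or control 6. Of 10 neutrophil markers none passed in limma (0 higher and 1 lower at an unadjusted p under 0.05), their sum was 68 to 79 in controls and 72 to 79 on the arrays labelled knockout, and S100a8, Ly6g and Elane read between 2.34 and 2.99 log2 on every array. The median level of the neutrophil list was 2.68 log2, within the range of the Y-linked genes on female arrays. The filter on dim genes (mean log2 under 4) kept 0 of the 10 neutrophil markers and 13 of the 14 macrophage markers. Values this low cannot show whether neutrophils changed. The part of macrophage content in the values of the Toll-like receptor genes was not tested.

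**Figure D4:**
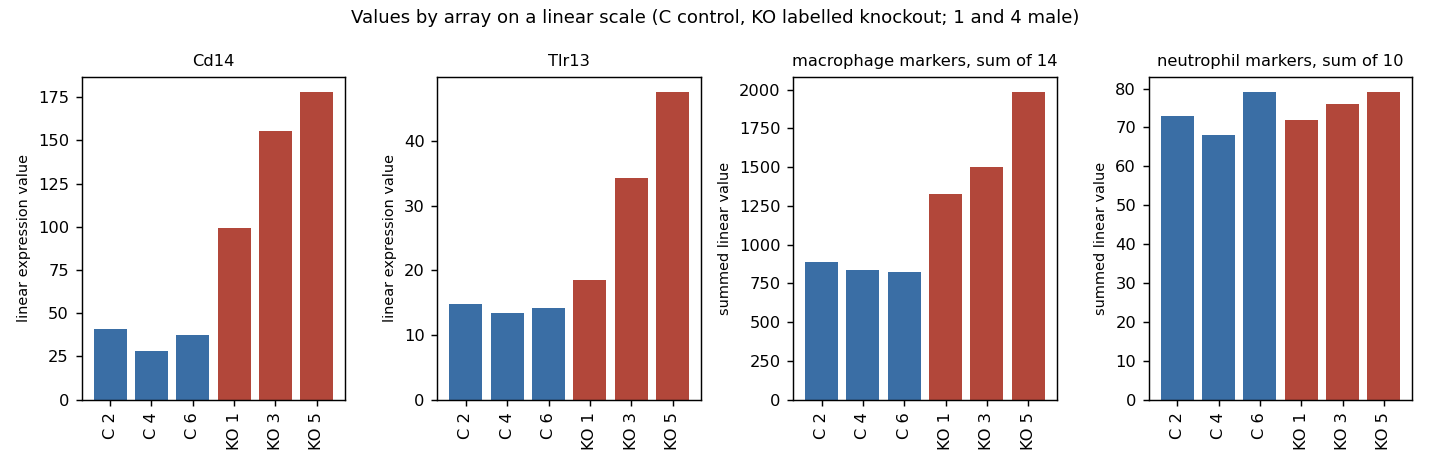
Linear expression values of Cd14 and Tlr13 and summed linear values of 14 macrophage and 10 neutrophil markers on each array, 1 bar per array, controls in blue and arrays labelled knockout in red. The macrophage sum climbs from at most 887 in controls to 1981 on knockout 5, while the neutrophil sum stays between 68 and 79. All neutrophil markers had a mean log2 under 4, too low to show whether neutrophils changed.

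Of 7 dendritic cell markers Itgax rose, of 8 lymphocyte markers Klrb1c, and of 6 liver markers Ttr, which the kidney also reads at 9.69 log2 in controls. Itgax and Klrb1c both had a mean log2 under 4. The filter on such dim genes left 2 dendritic and 4 lymphocyte markers, and none of these passed. The Itgax call was lost in each of the 6 fits with an array left out (adjusted p between 0.0539 and 0.10). That of Klrb1c was lost without control 2, control 6, knockout 3 or knockout 5 (up to 0.091) and that of Ttr without knockout 5 (0.0522); none of the 3 passed without the sex term. None of 7 endothelial or 6 adipose markers passed in limma (0 higher and 1 lower, and 1 higher and 0 lower, at an unadjusted p under 0.05). Of 8 proximal tubule markers 3 fell (Slc5a2, Miox and Slc34a1) and none rose, with 7 lower and 0 higher at an unadjusted p under 0.05. Slc5a2 and Miox kept their calls with each array left out, and Slc34a1 lost its call without control 2, control 6, knockout 3 or knockout 5 (adjusted p up to 0.088). Of 8 distal and duct markers Cdh16 and Aqp2 fell and none rose (3 lower and 2 higher at an unadjusted p under 0.05). Leaving out control 2 or control 6 took away both calls, with adjusted p-values up to 0.099, and leaving out knockout 5 that of Cdh16 (0.0524). The proximal sum was 17640 to 19779 in controls and 9983 to 15642 on the arrays labelled knockout. The distal and duct sum overlapped between the groups, at 10688 to 12659 in controls and 10266 to 13047 on the arrays labelled knockout.

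The genes whose profile over the 6 arrays lay nearest to that of Cd14, by the distance between log2 values centred on each gene's mean, were Anln (0.24), which acts in cytokinesis, the topoisomerase Top2a (0.39) and the matrix protein Tgfbi (0.39), where the profile of Cd14 itself has a length of 2.56. Nearest to Tlr2 were Ncf4 (0.10), a subunit of the phagocyte oxidase, B020004C17Rik (0.17) and Neurl3 (0.18), none of which passed between the groups. Nearest to Lbp were the acyl-CoA synthetase Acsl4 (0.12), the tight junction protein Cldn7 (0.14) and Cklf (0.14), which did pass.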

How the data were processed

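RNA of 3 kidney samples labelled knockout and 3 controls was hybridised to 1 array each. The authors deposited log2 values per transcript cluster; RMA, limma and R 3.4.0 are named without roles, per the submitters' processing notes, and the genome build was not given in the sources used here. RMA-type summaries compress small fold changes of dim clusters. Of 41345 clusters, 23521 carried 1 gene symbol in the platform annotation, 1814 several and 16010 none. The cluster with the highest mean was kept per gene, which left 22180 genes, and 1082 genes had several clusters.

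The deposited log2 values were fitted with limma 3.58.1 in R 4.3.3, with genotype and sex as terms (3 residual degrees of freedom, 6.72 with the shared prior) and Benjamini-Hochberg adjustment over all genes. The fit was tested on simulated data. Array medians lay between 3.81 and 3.87. The 3 arrays per group limit the precision. The members and lists were chosen with earlier results of these data known. The genes named are the 10 members, the 6 other Toll-like receptors, up to 4 called genes per list by smallest p, the 3 nearest profiles of Cd14, Tlr2 and Lbp, Pax2 and Pax8, and defining genes of marker lists (Umod and Slc34a1 for kidney; S100a8, Ly6g and Elane for neutrophils); other genes were named after their values were seen. Alternatives were 14 for genotype and 13 for sex: quantile normalization, median centring, a filter on dim genes (mean log2 under 4), a trended robust prior, array weights, averaged clusters, each array left out, no sex (or genotype) term, and females only. With 1 male per group, the genotype fits without knockout 1, without control 4 and of females only are the same fit.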

Additional observations from a re-analysis of the deposited data

How the results depend on the processing

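Cd14 kept its genotype call in all 14 alternatives, and Tlr1, Tlr2, Tlr4, Tlr6, Ly96 and Myd88 had none in any. With single arrays left out, Tlr3 ranged from 0.53 to 0.65 and Lbp from 0.46 to 0.65, both losing the call without control 2, control 6, knockout 3 or knockout 5; members called higher ranged from 1 to 4, and genes called from 218 to 675 higher and from 126 to 574 lower. Tlr7 ranged from 0.48 to 0.96, passing at 0.96 within the females, which is the same fit as without knockout 1 or without control 4. Without the sex term 304 genes passed as higher and 167 as lower, and Lbp (0.53) did not pass; with median centring 1194 passed as lower. Signs turned for Ly96 (0.022 with quantile normalization; from -0.0714 to 0.0225 with arrays left out), for Tlr6 (-0.005 with centring) and for Tlr11 (0.0229 within the females; from -0.0767 to 0.0229 with arrays left out).

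For sex, 278 genes passed as higher and 137 as lower in males. The count of members called lower was 0 with quantile normalization, centring, array weights, averaged clusters, no genotype term or any array left out, and 2 with the filter on dim genes or the trended prior. The filter gave 367 genes lower, the trended prior 509 higher and 399 lower, array weights 70 lower, and no genotype term 52 higher and 11 lower; arrays left out gave from 83 to 138 higher and from 23 to 47 lower. Without knockout 1 the sex estimates of Tlr3 and Tlr7 turned; with arrays left out they ranged from -0.2064 to 0.0147 and from -0.6059 to 0.3635. The causes were not tested. No paired analysis was possible because the replicate numbers 1 to 6 are not shared between the groups. The filter on dim genes left 12667 genes and dropped Tlr6 and Tlr7; without detection calls, low values such as those of Tlr8 and Tlr11 cannot be separated from background.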
